A study of Sus scrofa with 36 samples.

Results

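The genes described here are 10 genes of the melanocyte, the pigment cell, measured in the thyroid gland of growing pigs. They are the receptor KIT, the melanin enzymes DCT (dopachrome tautomerase), TYR (tyrosinase) and TYRP1, the transcription factors MITF and SOX10, the melanosome proteins PMEL and MLANA, and the receptors EDNRB and MC1R. A probe was taken when the gene name in the scanner files was one of these symbols or when the probe's description held the symbol in round brackets. The rule found 27 of the 60305 probes of the array, and these stood for 9 of the 10 genes. MLANA was not analysed here. KIT and DCT were chosen because their values in these same arrays were already known to differ between groups, so their differences between breeds and temperatures are given as a description with no test. The other 8 genes were added by name.

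Thyroid RNA of 36 castrated male pigs was hybridized to 1-colour Agilent porcine arrays, 1 pig per array. The groups were 3 breeds, Creole (CR), Large White (LW) and F1, the cross of both, each at 24 °C and at 30 °C, which made 6 groups of 6 pigs. The labels name 30 °C and the protocol text names 32 °C for 5 days, and the pigs at 24 °C were slaughtered before the exposure and those at 30 °C after it, so temperature and time of slaughter cannot be told apart. Each breed came from few families with littermates among the pigs, and breed and family cannot be told apart. No genotype, coat colour or age of a single pig was used.

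Melanocytes arise from the neural crest, and their precursors need signals through the receptor tyrosine kinase KIT and the endothelin receptor EDNRB to survive and migrate. SOX10 and MITF then switch on the genes for the melanosome and for melanin synthesis, in which TYR, DCT and TYRP1 act in turn. In pigs, KIT is a major coat colour gene, and the dominant white coat of breeds such as Large White goes with duplicated KIT alleles. KIT is not particular to pigment cells: mast cells, haematopoietic precursors and some epithelial and interstitial cells carry it too. In bulk tissue, fewer cells of a type and less RNA per cell cannot be told apart.

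The probes of a gene are numbered here, and each is 60 bases long. The 4 probes of KIT fall into a bright pair, KIT_1 and KIT_3, and a dimmer pair, KIT_2 and KIT_4, which read nearly the same stretch. These 2 sequences are shown, 5′ to 3′, because the dimmer pair is one measurement rather than a pair of independent ones; the capitals mark the 57 bases that they share.
KIT_2: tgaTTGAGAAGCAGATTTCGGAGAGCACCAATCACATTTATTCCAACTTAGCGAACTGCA
KIT_4: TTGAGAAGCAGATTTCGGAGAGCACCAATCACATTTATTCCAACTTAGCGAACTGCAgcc

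Of the 5 probes of DCT, 3 overlap. DCT_2 and DCT_4 share a run of 53 bases, DCT_2 and DCT_5 a run of 35, and DCT_4 and DCT_5 a run of 28. DCT_5 lacks a base that DCT_2 has at position 36, counted from its 5′ end, and the window around it is shown because these 3 probes carry the differences between groups described below; the capital marks that base.
DCT_2, part: atagattgttttatGagcttctacccgcag
DCT_5, part: atagattgttttatagcttctacccgcag
DCT_1 and DCT_3 lie outside that stretch and did not follow the overlapping probes, and DCT_1 is shown whole as the example.
DCT_1: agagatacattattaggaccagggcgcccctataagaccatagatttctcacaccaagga

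The values are log2 of the quantile-normalized median pixel intensity, and only values of the same probe are set against each other. A probe entered the fit when the scanner software called it well above background in 5 or more pigs of some group, which 46222 probes did. Among them were 23 of the 27 probes; the 3 probes of TYR and the probe of TYRP1 stayed out. An array had 72.8% to 80.3% of its probes well above background and 0 saturated spots. The arrays were spread over 5 slides, of which slides 1 to 4 held all 6 groups. The thyroid label was checked on thyrocyte markers, and 7 of 10 listed genes were tested. Of the listed genes that were not tested, SLC26A4 was well above background in 0 of the 36 pigs, with group means of 4.74 to 4.87. The group means of TG, the thyroglobulin gene, lay between 18.57 and 18.92. The mean log2 value of the 7 tested genes lay between 13.59 and 14.28 in CR pigs and between 13.61 and 14.23 in LW pigs. In contrast, of the genes that define a pigmented melanocyte, TYRP1 and PMEL lay near background in every breed and TYR in most pigs. The PMEL probe was still called well above background in 21 of the 36 pigs. The melanin enzyme DCT was not so dim: each of its probes was well above background in 35 or 36 pigs. Of other pigment genes, SLC45A2, OCA2 and GPR143 were well above background in 36 pigs and SLC24A5 in 1.

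KIT was the member that separated the breeds most clearly. On each of its 4 probes, every LW pig lay above every CR pig, and LW pigs had between 3.17 and 3.53 times the intensity of CR pigs. F1 pigs lay between the parental breeds and nearer to CR. The contrast by which KIT was chosen is not recorded, so its differences between breeds and temperatures carry no test.

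On KIT_1, the lowest, median and highest CR pigs were at 11.03, 11.61 and 12.19. F1 pigs ran from 11.43 through a median of 12.30 to 12.94. LW pigs ran from 12.76 through a median of 13.49 to 13.89. The LW pigs were thus apart from the CR pigs, whereas the F1 pigs overlapped with both. LW minus CR was 1.82 (SE 0.16) on KIT_1, 1.67 (SE 0.17) on KIT_2, 1.79 (SE 0.17) on KIT_3 and 1.71 (SE 0.17) on KIT_4, with 12 pigs a breed. For comparison, 0.279% of the probes measured on all 36 arrays had 12 LW and 12 CR pigs that did not overlap, and the 4 KIT probes ranked between 42 and 63 among the 46222 tested probes by the size of this difference.

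The separation was there before and after heat. At 24 °C, LW minus CR lay between 1.53 and 1.68 over the 4 probes, and at 30 °C between 1.81 and 1.96. Within each of slides 1 to 4, it lay between 1.32 and 2.23, always with LW higher.

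**Figure D1:**
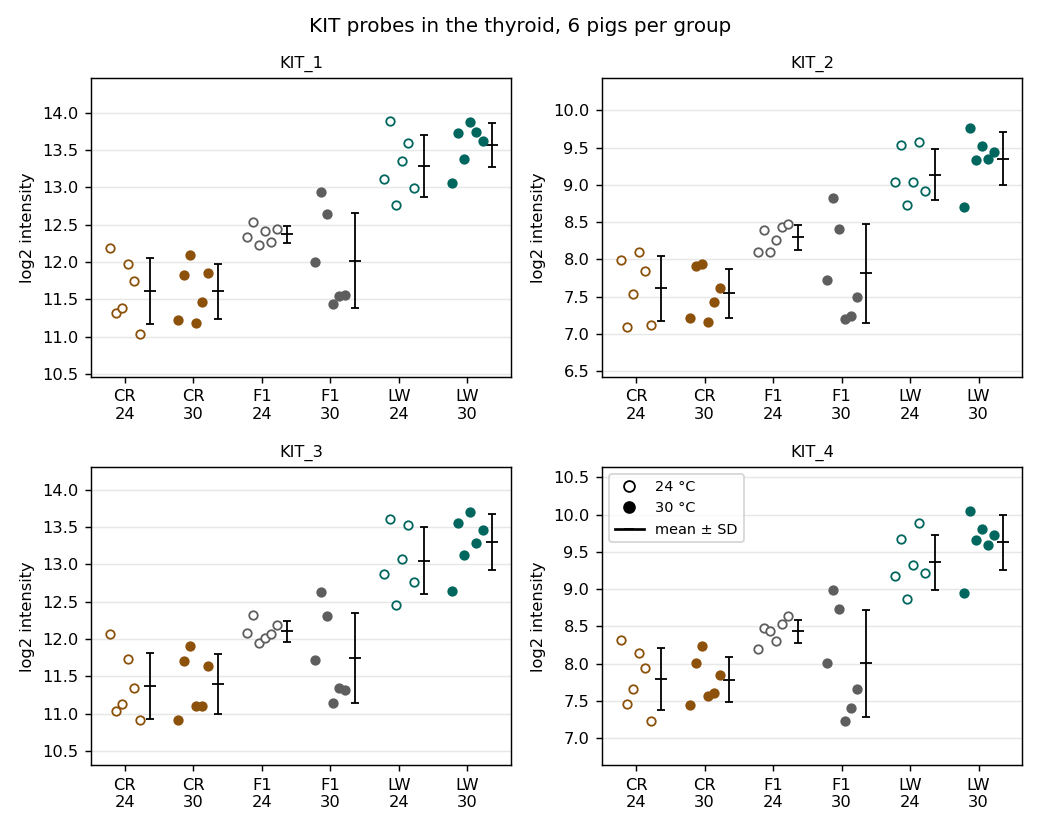
KIT in the thyroid of each pig, in log2 intensity, for the 4 KIT probes by breed and temperature; points are pigs and bars are group means. On every probe the 12 LW pigs lie above the highest CR pig, and on KIT_1 the F1 pigs at 24 °C span only 12.24 to 12.54 while those at 30 °C span 11.43 to 12.94.

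Over both temperatures, the F1 cross lay below the mean of its parental breeds in KIT. F1 minus the mean of CR and LW was -0.32 (SE 0.14) on KIT_1, -0.36 (SE 0.14) on KIT_2, -0.36 (SE 0.15) on KIT_3 and -0.42 (SE 0.15) on KIT_4. Back on the linear scale, the mean intensity of F1 pigs was between 65.2% and 68.6% of the parental mean. Of the 12 F1 pigs, 11 lay below the lowest LW pig on each probe. Above the highest CR pig lay 8 on KIT_1, 8 on KIT_2, 5 on KIT_3 and 6 on KIT_4. Within slides the distance was not of one sign: it ran from -0.77 to 0.16 over the 4 probes and was above 0 on 1 of the 4 slides for each probe.

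Within each temperature, the distance of F1 from the parental mean was as follows. At 24 °C it was -0.07 on KIT_1 (SE 0.20) and reached at most -0.14, on KIT_4. At 30 °C it was -0.57 on KIT_1 (SE 0.20) and ran to -0.70 on KIT_4. The F1 pigs at 24 °C were tightly grouped on KIT_1 (SD 0.11, n = 6), while those at 30 °C were spread out (SD 0.63, n = 6): replicates 2 and 3 stood at 12.94 and 12.64 and the median was 11.78.

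KIT was at similar levels at both temperatures. The difference between 30 and 24 °C over the breeds lay between -0.11 and -0.02 on the 4 probes, with SEs of 0.13 to 0.14. On KIT_1 it was 0.00 in CR, -0.35 in F1 and 0.28 in LW (SE 0.23 each). The test of the breed by temperature interaction was not passed by any of the 23 tested probes of the members; whether the choice of KIT and DCT used it is not recorded. Over all tested probes, 0% passed it. The smallest unadjusted p among the 23 was 0.107, and 0 had an unadjusted p under 0.05 (limma). The unequal heat differences of the breeds on KIT thus did not exceed what the spread between pigs allows this test to call.

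The probes of KIT gave closely similar, though not identical, orders of the pigs. Over the 36 arrays, the correlation between KIT probes lay between 0.983 and 0.994, and between 0.932 and 0.975 after group means were removed. The bright pair had median raw intensities of 5506 and 4378 units and the dimmer pair 300 and 328.5 units, over a local background of 35 to 39 units.

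DCT, which turns dopachrome into a carboxylated melanin precursor, had another pattern, and only on its 3 overlapping probes. On DCT_2, DCT_4 and DCT_5, F1 pigs were lower than both parental breeds, at 50.9% to 53.7% of the parental mean intensity. The same probes were higher at 30 °C than at 24 °C in each breed. DCT_1 and DCT_3 showed neither difference.

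On DCT_4, the brightest DCT probe, CR pigs at 24 °C had a lowest value of 7.16, a median of 7.48 and a highest of 7.85, and at 30 °C these were 7.69, 7.98 and 8.73. F1 pigs had 6.42, 6.70 and 7.25 at 24 °C, and 6.52, 7.17 and 7.64 at 30 °C. LW pigs had 7.29, 7.81 and 8.53 at 24 °C, and 7.65, 8.20 and 8.59 at 30 °C. The F1 pigs at 24 °C formed the lowest group, and 8 of the 12 F1 pigs lay below the lowest CR pig, but the breeds overlapped.

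F1 minus the mean of CR and LW was -0.95 (SE 0.14) on DCT_2, -0.93 (SE 0.12) on DCT_4 and -0.88 (SE 0.13) on DCT_5. All 12 F1 pigs lay below the parental mean on each of these 3 probes. The distance was between -0.82 and -0.86 at 24 °C and between -0.95 and -1.07 at 30 °C, and within each of slides 1 to 4 it lay between -1.41 and -0.46. On the 2 other probes it was 0.04 (SE 0.05) for DCT_1 and -0.01 (SE 0.07) for DCT_3.

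The parental breeds overlapped in DCT. LW minus CR was 0.28 on each of the 3 overlapping probes, with SEs of 0.14 to 0.16, and within slides it ran from -0.14 to 0.77. On these 3 DCT probes the F1 mean thus lay outside the range of the parental means, and on the KIT probes inside it.

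**Figure D2:**
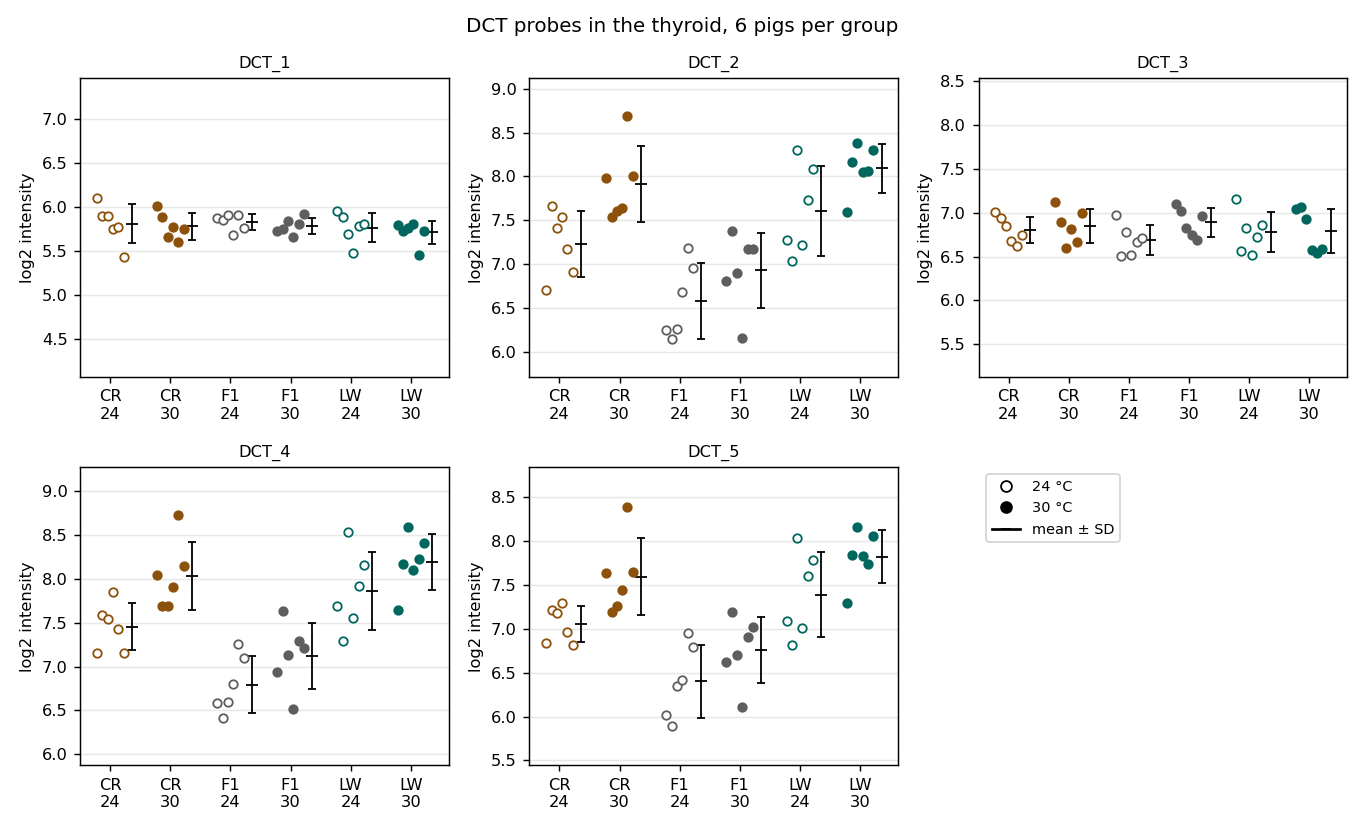
DCT in the thyroid of each pig, in log2 intensity, for the 5 DCT probes by breed and temperature; points are pigs and bars are group means. On DCT_2, DCT_4 and DCT_5 the F1 mean is lowest and the breeds overlap, with F1 minus the parental mean between -0.95 and -0.88. On DCT_1 and DCT_3 that difference is 0.04 and -0.01.

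The heat difference of DCT was 0.50 (SE 0.13) on DCT_2, 0.41 (SE 0.11) on DCT_4 and 0.44 (SE 0.12) on DCT_5. On each of these probes, 16 of the 18 pigs at 30 °C lay above the 24 °C mean of their own breed. On DCT_4 the difference was 0.58 in CR, 0.33 in F1 and 0.33 in LW (SE 0.20 each). Within slides it lay between -0.13 and 0.79 over the 3 probes and was above 0 on 3 of the 4 slides. DCT_1 and DCT_3 had differences of -0.04 (SE 0.05) and 0.08 (SE 0.06).

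The overlapping probes ran together, with correlations of 0.985 to 0.988 over the 36 arrays. Their correlations with DCT_1 and DCT_3 lay between -0.22 and 0.10, and DCT_1 correlated with DCT_3 at 0.461. On DCT_3 every pig on slide 1 lay at 6.93 or above, while the median of all pigs was 6.79, and the correlation does not remove such slide differences. DCT_1 was dim, with a median raw intensity of 55 units over a local background of 38.5 units, and DCT_3 had 109 units over 35.25. The probe annotation places DCT_2, DCT_4 and DCT_5 on the same source sequence, with starts from 2777 to 2785. DCT_1 and DCT_3 come from another source sequence, with starts at 1002 and 2068. Which transcript each probe reads was not tested, since no genome positions come with the probes.

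Of the members added by name, MITF and EDNRB differed between LW and CR, in opposite directions. Of the 14 tested probes of the 8 genes other than KIT and DCT, 9 were called for LW minus CR, which means an adjusted p under 0.05 in limma; over all tested probes 12.9% were called, 7.17% as higher and 5.73% as lower in LW. The 9 were the 6 probes of MITF, all lower in LW, and the 3 probes of EDNRB, all higher in LW. Within a temperature, 1 of the 14 was called at 24 °C and 6 at 30 °C (limma), and the share of all tested probes is not given for these. The MITF differences ran from -0.41 to -0.27 at 24 °C and from -0.60 to -0.29 at 30 °C. Those of EDNRB ran from 0.24 to 0.30 and from 0.33 to 0.52.

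MITF, the master regulator of the melanocyte lineage, which is also expressed in other cell types, was lower in LW than in CR. On its brightest probe, MITF_2, CR pigs had a lowest value of 9.27, a median of 9.74 and a highest of 10.27. F1 pigs had 9.21, 9.45 and 9.65, and LW pigs 8.78, 9.31 and 9.72. The LW pigs were lower as a group, with 11 of 12 below the CR mean, but the breeds overlapped.

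LW minus CR was -0.42 (SE 0.09, limma adjusted p 0.00174) on MITF_2, so that CR pigs had 1.34 times the intensity of LW pigs. The 6 probes ranged from -0.50 to -0.28, with adjusted p-values of 0.0002 to 0.00275, and within each of slides 1 to 4 every probe was lower in LW. MITF_4 and MITF_6 share 52 bases and MITF_2 and MITF_4 share 17, so the 6 probes are not 6 separate measurements. F1 minus CR lay between -0.28 and -0.20, and 0 of the 14 probes were called for F1 minus CR (6 at an unadjusted p under 0.05, limma; 3.38% of all tested probes were called), with a smallest adjusted p of 0.081.

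EDNRB, the endothelin receptor of neural crest cells and of endothelium, was higher in LW. On EDNRB_1, the brightest probe, CR pigs had 7.88, 8.06 and 8.38 as lowest, median and highest values, F1 pigs 7.72, 8.16 and 8.69, and LW pigs 8.19, 8.36 and 8.73. All 12 LW pigs lay above the CR mean on each of the 3 probes, although the breeds overlapped. LW minus CR was 0.28 (SE 0.08, limma adjusted p 0.0186) on EDNRB_1, 0.41 (SE 0.08, adjusted p 0.000291) on EDNRB_2 and 0.31 (SE 0.08, adjusted p 0.00896) on EDNRB_3.

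The F1 mean lay nearer to the CR mean than to the LW mean on the 3 EDNRB probes. F1 minus the parental mean was called on none of them (limma adjusted p 0.39 to 0.787). On EDNRB_2, F1 pigs were lower than LW pigs with a difference of -0.36 (SE 0.08, limma adjusted p 0.00621), the single call among the 14 probes for F1 minus LW, for which 1.99% of all tested probes were called. F1 minus CR on the same probe was 0.05 (SE 0.08, adjusted p 0.787). EDNRB_2 is shown because it carried both differences.
EDNRB_2: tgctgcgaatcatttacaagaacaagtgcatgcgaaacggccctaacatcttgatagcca

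None of these genes was called for heat or for the distance of F1 from the parental mean. For 30 °C minus 24 °C, 0 of the 14 probes were called and 3 had an unadjusted p under 0.05 (limma; 1.18% of all tested probes were called). These were EDNRB_2 with -0.20 (SE 0.06, adjusted p 0.126), EDNRB_3 with -0.15 (SE 0.07, adjusted p 0.429) and the dim PMEL probe, which is described below without a test. For F1 against the parental mean, 0 of the 14 were called and 1, EDNRB_2, had an unadjusted p under 0.05 (limma; 0.439% of all tested probes were called).

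SOX10, which activates MITF, and MC1R, the melanocortin receptor that switches melanocytes to dark pigment, were not called in any comparison. SOX10_2 was bright, and its median was 12.46 in the CR pigs, 12.56 in the F1 pigs and 12.45 in the LW pigs. LW minus CR was -0.10 (SE 0.12, limma adjusted p 0.677). The values of SOX10_2 went with the slide: every pig on slides 3 and 4 lay at 12.65 or above, and every other pig at 12.47 or below. SOX10_1 was near background at 60.5 units, and correlated with SOX10_2 at 0.395 over the 36 arrays. The MC1R probes have one and the same sequence, shown because the copies show how far readings of one sequence can differ.
MC1R_1 and MC1R_2: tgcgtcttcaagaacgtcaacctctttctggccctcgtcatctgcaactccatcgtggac
Over the 36 arrays, the copies correlated at only 0.371. On MC1R_2 every pig on slide 1 lay at 7.93 or above, while the median of all pigs was 7.73. The correlation does not remove such slide differences. LW minus CR was 0.05 (SE 0.12) on MC1R_1 and -0.04 (SE 0.09) on MC1R_2, with adjusted p-values of 0.841 and 0.85.

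PMEL, which forms the fibrils of the melanosome, was dim. CR pigs had a lowest value of 5.16, a median of 5.36 and a highest of 5.79, F1 pigs 5.11, 5.49 and 5.70, and LW pigs 5.26, 5.57 and 5.95. The breeds overlapped, LW minus CR was 0.18 (SE 0.06) and 30 °C minus 24 °C was -0.16 (SE 0.05). The probe entered the fit only through the LW pigs at 24 °C, where it was highest and where 6 of 6 pigs were well above background (1 to 4 of 6 in the other groups), so its p-values are not read. The TYRP1 probe rose well above background in 4 of the 36 pigs and had a median of 5.35 in the CR pigs, 5.18 in the F1 pigs and 5.11 in the LW pigs.

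TYR, the enzyme that starts melanin synthesis, was detected in some pigs and not in others. On TYR_1, 8 pigs were well above background, at values of 6.75 to 7.62, and the other 28 lay between 4.58 and 4.95. The gap between the 2 sets of pigs was therefore wider than the spread within either. No test was made on it, since the pigs were set apart by the value itself.

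The 8 pigs were CR replicates 3 and 4 at 24 °C (7.27 and 7.61), CR replicates 3 and 4 at 30 °C (7.13 and 7.62), F1 replicates 2, 3 and 4 at 24 °C (6.75, 6.97 and 7.51) and F1 replicate 3 at 30 °C (6.76). On this probe, 4 of the 8 were CR, 4 were F1 and 0 were LW. They lay on 3 slides, which each also held pigs without the signal. On TYR_2, the same 8 pigs were the highest of the 36, at 6.31 to 6.91, and the other 28 lay between 4.69 and 5.66. TYR_2 was also well above background in 5 of those 28, 4 LW pigs and 1 F1 pig, so that its 13 detected pigs were 4 CR, 5 F1 and 4 LW. The absence of LW pigs thus holds for TYR_1 and for the 8 highest values of TYR_2, not for detection on TYR_2. On TYR_3 all pigs lay between 4.73 and 5.47, and 1 was well above background.

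TYR_2 is shown because its 8 highest pigs were the 8 pigs of TYR_1; the capitals mark the 17 bases that it shares with TYR_3.
TYR_2: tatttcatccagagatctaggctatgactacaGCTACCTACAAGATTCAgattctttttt

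**Figure D3:**
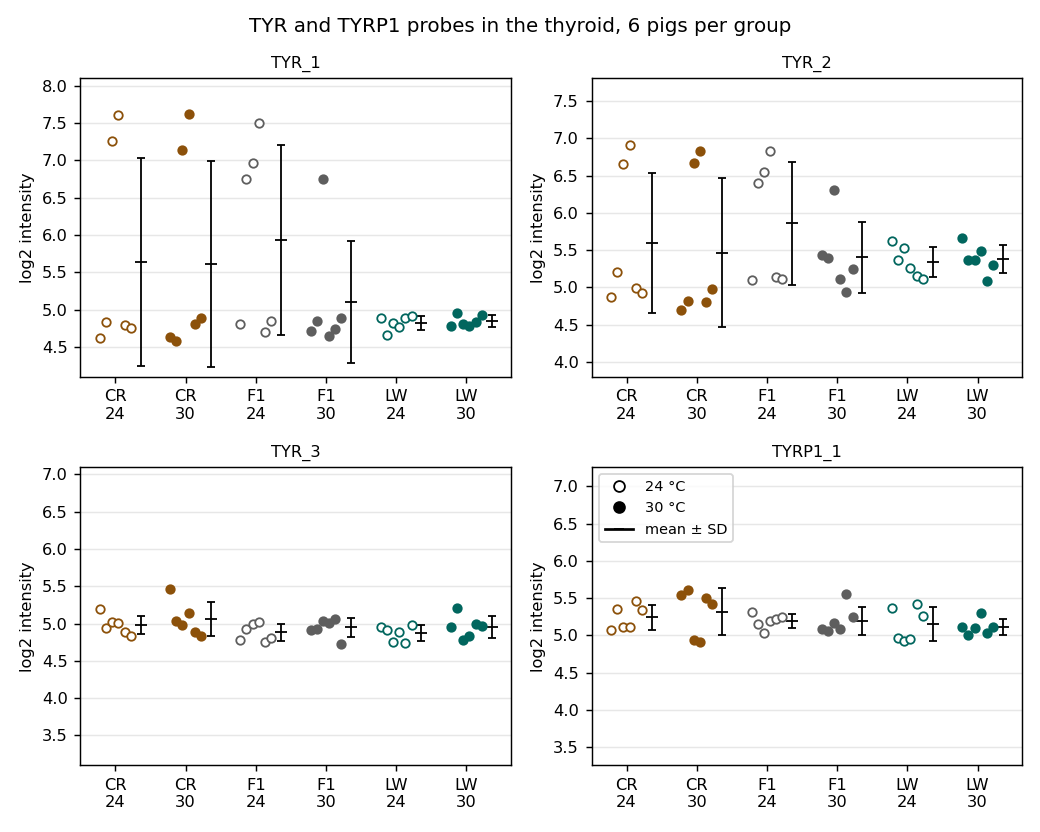
TYR and TYRP1 in the thyroid of each pig, in log2 intensity, by breed and temperature. Open points are pigs at 24 °C and filled points are pigs at 30 °C. The fill does not show which pigs were well above background. On TYR_1, 8 pigs lie between 6.75 and 7.62 and the other 28 between 4.58 and 4.95, with 0 LW pigs among the 8.

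The members were then compared pig by pig inside the groups. For KIT and for DCT, the brightest tested probe was correlated with that of each other tested member on deviations from the group means, 11 pairs over 36 pigs, and 0 pairs passed a permutation test after adjustment. The highest was KIT with PMEL (Pearson r 0.393, permutation p 0.0403, adjusted p 0.444; Spearman rho 0.368, permutation p 0.0465, adjusted p 0.512). The PMEL probe was near background and entered the fit only through 1 group, as given above, so nothing is read from this pair. Its Pearson r was 0.319 without the 2 pigs farthest from the median of KIT and ran from -0.04 to 0.64 within slides. The Pearson r of the other 10 pairs lay between -0.33 and 0.06. With slide means also removed, the r of DCT with SOX10 moved from -0.06 to -0.54 and that pair was called (permutation adjusted p 0.0153).

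Other genes of the same biology were taken as lists, and a gene is given by its brightest tested probe. KITLG, the ligand of KIT, had a single tested probe with LW minus CR of -0.06 (SE 0.07, limma adjusted p 0.663). The counts of calls that follow stand against the 12.9% of all tested probes called for LW minus CR, and with so few genes in a list nothing is read from a list's share alone. Of 14 tested genes of KIT signalling, 4 were called for LW minus CR. STAT5B and the phosphatase PTPN11 were higher in LW, by 0.18 (adjusted p 0.013) and 0.27 (adjusted p 0.0158), and the phosphatase PTPN6 and the kinase subunit PIK3R1 were lower, with differences of -0.18 (adjusted p 0.0451) and -0.30 (adjusted p 0.0463). The 4 probes of PTPN6 differed in sign, and the calls of PTPN6 and PIK3R1 were lost without any 1 of 14 and 18 pigs. The median difference of the 14 genes was -0.03, against 0.00 over all tested probes.

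Of 19 tested genes of the melanosome and of pigment transport, 3 were called, a share near the 12.9% of all tested probes, and these 3 were lower in LW. They were the transporter SLC45A2 at -0.80 (SE 0.14, limma adjusted p 0.000159), melanophilin (MLPH) at -0.52 (SE 0.12, adjusted p 0.00266) and the channel TPCN2 at -0.29 (SE 0.08, adjusted p 0.0192). MLPH was dim in LW pigs, with group means of 5.73 at 24 °C and 5.64 at 30 °C, and was well above background in 33 of the 36 pigs. With other processing settings its difference ran from -1.01 to -0.31. The list as a whole had a median of 0.01, with 10 of the 19 genes above 0. Of 9 tested lineage regulators, 1 was called, again near the share of all tested probes: POMC, the precursor of the melanocortins, was lower in LW at -0.35 (SE 0.08, adjusted p 0.00284).

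Markers of mast cells and of endothelium, which also carry some of these receptors, were set beside KIT and EDNRB. The mast cell list, from which KIT was left out, had 3 tested genes of 9, and all 3 were lower in LW. They were HDC, the enzyme that makes histamine, at -0.87 (SE 0.16, limma adjusted p 0.000243), MS4A2 at -0.35 (SE 0.10, adjusted p 0.0114) and GATA2 at -0.21 (SE 0.05, adjusted p 0.00455). Their mean log2 value lay between 7.34 and 8.30 in CR pigs and between 7.09 and 7.64 in LW pigs, so it was lower in the breed in which KIT was higher. HDC was dim in LW pigs, with group means of 5.99 at 24 °C and 5.86 at 30 °C, though well above background in all 36 pigs. With other processing settings its difference ran from -1.47 to -0.62. The part of mast cells in the KIT values was not tested. CPA3, TPSAB1, TPSB2, CMA1, FCER1A and HPGDS were not analysed here.

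Some endothelial markers were higher in LW, as KIT and EDNRB were. Of 8 tested genes, 4 were called, against 12.9% of all tested probes, these 4 were higher in LW, and the median of the list was 0.23. VWF and EGFL7 had differences of -0.12 and -0.01 and were not called. The 3 with the smallest p were KDR at 0.73 (SE 0.10, limma adjusted p 4.39e-06), PECAM1 at 0.35 (SE 0.09, adjusted p 0.00588) and TIE1 at 0.27 (SE 0.07, adjusted p 0.0112), and CDH5 was the other, a call lost without any 1 of 9 pigs. The mean log2 value of the 8 genes lay between 11.72 and 12.12 in CR pigs and between 11.97 and 12.38 in LW pigs. Its part in the KIT and EDNRB differences was not tested.

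KDR is also the neighbour of KIT on the chromosome, in the gene order PDGFRA, KIT, KDR of the pig reference assembly Sscrofa11.1. It was the single called gene of 8 tested near KIT, a share like that of all tested probes, and it was called on 1 of its 3 probes, all of which were higher in LW. PDGFRA, on the other side of KIT, had a difference of -0.09 (SE 0.08, limma adjusted p 0.558). Near DCT, 1 of 5 tested genes was called, DNAJC3, which was lower in LW at -0.35 (SE 0.07, adjusted p 0.00103), and TGDS, the neighbour of DCT, was not (0.17, SE 0.06, adjusted p 0.0768).

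Among markers of Schwann cells and nerve, which share the neural crest origin, 1 of 9 tested genes was called, again near the share of all tested probes: PMP22, higher in LW by 0.23 (SE 0.07, limma adjusted p 0.0138). Of thyrocyte markers 0 of 7 were called (1 at an unadjusted p under 0.05, limma), of thyroid C cell markers 0 of 7 (0 at an unadjusted p under 0.05) and of enzymes related to dopachrome tautomerase and quinones 0 of 4 (1 at an unadjusted p under 0.05). For heat and for F1 against the parental mean, 0 genes of any list were called in limma, and the smallest heat p-value was that of the endothelial gene EGFL7 (0.20, SE 0.05, p 0.000669, adjusted p 0.0549). For F1 against the parental mean, 4 of the 7 C cell markers had an unadjusted p under 0.05 (limma), all higher in F1. They were CHGB at 0.73, SCG2 at 0.73, SCG3 at 0.51 and RET at 0.48, with adjusted p-values of 0.224 to 0.402. In the same comparison, the KIT probes and DCT_2, DCT_4 and DCT_5 were lower in F1. DCT_1 and DCT_3 had differences of 0.04 and -0.01, and the F1 mean of KIT still lay above that of CR. The median of the C cell list was 0.48, and the part of C cells in the KIT and DCT values was not tested.

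**Figure D4:**
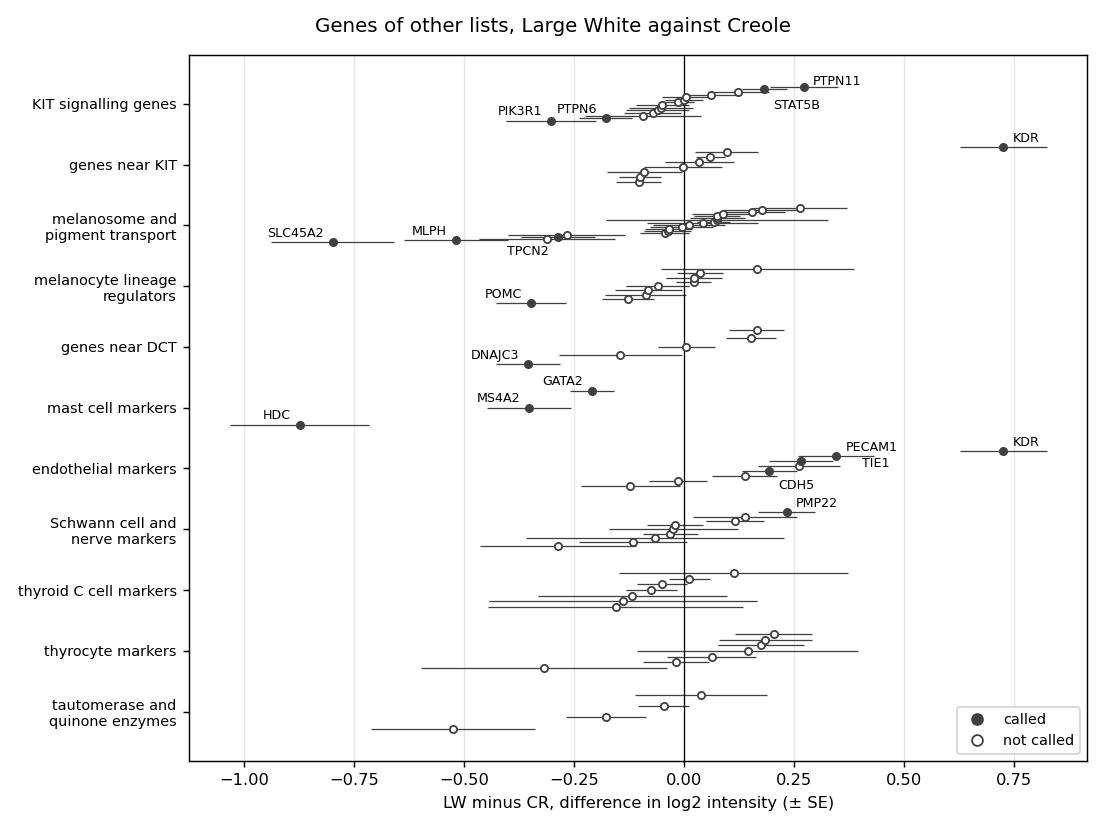
LW minus CR in log2 intensity, with SE, for the brightest tested probe of each gene of the other lists; filled points are called. The 3 mast cell genes lie below 0, at -0.87 to -0.21, and the 4 called endothelial genes above 0, with KDR at 0.73.

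The genes whose pattern was most like KIT and DCT were looked up among 10262 named genes by the correlation of log2 values over the 36 arrays, as a description with no test. For KIT_1 they were TMEM98 (0.796), DEFB1 (0.778), KDR (0.771), PAPOLG (0.75) and CLDN23 (0.745), on values that still held the differences between groups. After group means were removed, they were TMEM55A (0.709), DBNDD2 (0.683), STAG2 (0.679), PLPP2 (0.662) and CDC25C (0.656), so that none of the first 5 remained.

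For DCT_4, the likeness was weaker. AGPAT4 (0.587), RNF103 (0.572), ST3GAL5 (0.566), PDCD1 (0.565) and DPYD (0.565) came first on the values, and ABHD17B (0.628), CCL28 (0.623), RFC5 (0.593), CNN2 (0.574) and AMCF-II (0.573) on the deviations from group means. The pigs of a slide share that slide, which none of these correlations removes, and no other melanocyte gene was among the 5 for either gene.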

How the data were processed

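Per the file headers and the submitters' processing notes, the scanner files hold pixel intensity values from Agilent Feature Extraction 10.10.1.1. The authors quantile-normalized the median intensity without background subtraction and deposited log2 values of 46097 probes, from which the values remade here in the same way differed by a median of 0.00556. Control spots (1319) were left out and 106 non-uniform spots were set to missing. Probes entered the fit if called well above background in 5 or more of the 6 pigs of some group.

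limma 3.58.1 in R 4.3.3 was fitted to all 36 arrays with terms for breed and temperature, and with the 6 group means for the interaction and for values within a breed or temperature. P-values were adjusted by Benjamini-Hochberg over the 46222 tested probes and called under 0.05. The SE comes from the fit. Simulated data with independent pigs checked the calls of known shifts, not the SE, and held no litters or slides. Littermates counted as independent pigs, and pen, day of slaughter, sire and dam were not used. Correlations were tested by 2-sided permutation with 100000 resamples and adjusted over the 11 pairs.

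Members, gene lists and tests were chosen with earlier results of these data known. Named were every probe of KIT and DCT, and the brightest tested probe of each other member with the range of its other probes. Also named were at most 3 called genes of each list by smallest p, and the 5 most alike genes. KITLG, PDGFRA, TGDS, EGFL7, VWF, CDH5, PIK3R1, the C cell genes and single probes of EDNRB were named after their values were seen. The same holds for SLC26A4, OCA2, GPR143 and SLC24A5. Symbols and gene order came from RefSeq tables (Sscrofa11.1). Alternatives were the deposited log2 values, the processed intensity scaled to the 75th percentile, normexp with an offset of 50, no filter or a stricter one, no breed term, terms for slide or position, and leaving out each pig. Arrays have no read depth, and their number limits the precision.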

Additional observations from a re-analysis of the deposited data

Results flagged for a closer look

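Within the 6 groups, 17 probes gave 102 tests for a pig that stood far from the 5 others of its group, and 4 values did. Chance gives about 1 in 20 such tests. TYR_1 and TYR_2 stood out in the same pig, F1 replicate 3 at 30 °C, with log2 intensities of 6.756 and 6.306, against 4.887 and 5.43 for the next highest pig of its group. It is 1 of the 8 pigs with TYR_1 well above background. PMEL_1 was highest in LW replicate 2 at 24 °C, at 5.946 against 5.625 for the next pig. DCT_1 was lowest in LW replicate 5 at 30 °C, at 5.453 against 5.724 for the next pig. The median raw intensities of PMEL_1 and DCT_1 were 43.5 and 55 units, close to the local background of 36 and 38.5 units.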

How the results depend on the processing

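No paired analysis was possible because the labels give no replicate numbers that tie pigs across groups. Arrays have no depth, and signal over background limits TYR, TYRP1, PMEL, DCT_1 and SOX10_1, and MLPH and HDC in LW pigs. Of the counts of called probes or genes and of called pairs, 77 values under other settings stayed within 1.5 times the reported count and 5 rose from 0 to 1. With slide as a fixed block, F1 minus CR gave 1 call (MITF_3, -0.21, adjusted p 0.0455). The lists gave 1 heat call, EGFL7, with slide as a fixed block (0.20), slide as a random block (0.20) and position as a fixed block (0.22), settings added after seeing the data. With slide means also removed, 1 DCT pair was called (DCT with SOX10, r -0.542, permutation adjusted p 0.0153). The SOX10_2 values differed between slides, and the cause of this call was not tested.

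Differences close to 0 changed sign: SOX10_1 for LW minus CR (-0.0414) and EDNRB_1 for heat (-0.0107) with the processed intensity, SOX10_2 for F1 against the parental mean (-0.0169) with slide as a fixed block, and SOX10_2 for heat (0.0102) with position. Single list calls were lost for CDH5, STAT5B and PIK3R1 with the processed intensity, PTPN6 and PIK3R1 without the filter, PTPN6 with position, and PIK3R1 with normexp and with slide as a fixed block.

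Leaving out each pig in turn gave 0 to 1 heat calls (EDNRB_2 without LW replicate 3 at 30 °C), 9 to 10 for LW minus CR (the added one PMEL_1, whose p-values are not read), 0 to 1 for F1 minus CR, 1 to 2 for F1 minus LW (EDNRB_3 without F1 replicate 2 at 30 °C), 0 to 1 heat calls in the lists (EGFL7) and 14 to 19 list calls for LW minus CR. CDH5 was lost without any of 9 pigs, PTPN6 of 14 and PIK3R1 of 18. The ranges that crossed 0 were -0.0223 to 0.0295 (SOX10_1, LW minus CR), -0.0772 to 0.00474 (MC1R_2, LW minus CR), -0.0186 to 0.0382 (EDNRB_1, heat), -0.0405 to 0.0268 (SOX10_2, heat) and -0.0296 to 0.0712 (SOX10_2, F1 against the parental mean).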
